A study of Mus musculus with 3 samples.

Results

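Cell adhesion was described here through 8 genes, out of 32285 in the deposited matrices. These genes were chosen by name as adhesion molecules of leukocytes and fibroblasts, with earlier results of these data known. They were the ligands and stromal adhesion molecules Vcam1, Icam1, Chl1 and Cdh11, and the leukocyte integrin subunits Itga4, Itgal, Itgam and Itgb2. They were followed in mouse hind paws during serum transfer arthritis, a model in which serum of arthritic K/BxN mice, whose antibodies set off joint inflammation, is given by intraperitoneal injection. The 3 single-cell libraries, made with the 10x 3' kit, were CD45- stromal cells at day 5 after serum, CD45- stromal cells labelled steady state and day 0, and, from day 9, myeloid cells sorted as CD45+, CD11b+ and Ly6G-. The protocol text on the injection is the same for all of them, and the genotype, strain, sex and age of the recipients and the number of animals in a library are not given in the sources used here. Each group was 1 library. Day and library therefore cannot be told apart, no test between groups was possible, and every interval below is a 95% interval for counting error only.

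VCAM1 and ICAM1 are immunoglobulin-type surface proteins on which leukocytes arrest and crawl, and their genes are known targets of inflammatory cytokines. VCAM1 is bound by the integrin made of the alpha 4 chain (Itga4) and the beta 1 chain (Itgb1), while ICAM1 is bound by LFA-1 (Itgal with Itgb2) and by Mac-1 (Itgam with Itgb2). Cadherin-11, the product of Cdh11, is the cadherin by which synovial fibroblasts and osteoblasts adhere to each other, and in mice the synovial lining needs it. CHL1, the close homolog of L1, is an immunoglobulin-type adhesion molecule known mainly from neurons.

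All the members are protein-coding genes, and their places are those of the GENCODE M21 annotation on mm10. Vcam1 lies at chr3:116109949-116129688 on the minus strand and Icam1 at chr9:21015985-21028817 on the plus strand. Cdh11 lies at chr8:102632095-102785642 on the minus strand and Chl1 at chr6:103510586-103750211 on the plus strand. Itga4 is at chr2:79255426-79333123, Itgal at chr7:127296260-127335138, Itgam at chr7:128062640-128118491 and Itgb2 at chr10:77530252-77565708, all on the plus strand. Itgal and Itgam thus share chromosome 7.

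RefSeq's promoter table for GRCm38.p6 held 4 of the 8 members (Icam1, Chl1, Itga4 and Itgam). The 250 bases before the RefSeq start were searched on both strands for GGAAATTCC and a longer motif (both kappaB-type), TGANTCA (AP-1-type) and GAGGAAG (PU.1-type). Each of 2 genes had 1 match, and these windows are shown because they belong to a stromal ligand of the leukocyte integrins and to the integrin by which the myeloid cells were sorted. The Icam1 window (chr9:21015690-21015939, plus strand) and the Itgam window (chr7:128062390-128062639, plus strand) read as follows, 5′ to 3′, with the matched motif in capitals.
Icam1: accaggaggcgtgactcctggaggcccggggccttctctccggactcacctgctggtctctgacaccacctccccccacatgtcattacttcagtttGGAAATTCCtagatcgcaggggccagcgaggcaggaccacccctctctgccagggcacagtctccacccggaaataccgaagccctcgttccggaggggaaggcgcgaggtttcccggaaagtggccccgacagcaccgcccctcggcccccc
Itgam: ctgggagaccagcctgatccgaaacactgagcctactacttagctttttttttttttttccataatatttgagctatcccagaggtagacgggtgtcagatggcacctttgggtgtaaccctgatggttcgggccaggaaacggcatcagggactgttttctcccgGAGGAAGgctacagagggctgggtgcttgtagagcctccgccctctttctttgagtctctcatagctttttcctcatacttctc
The capitals in Icam1 mark GGAAATTCC, which lies 153 to 145 bases before the start and was found in 0.286% of 32851 promoter windows of this length. The capitals in Itgam mark GAGGAAG, 84 to 78 bases before the start, found in 10.6% of the windows. The other motifs were found in 1.41% (the longer kappaB-type motif) and 6.75% (TGANTCA) of the windows. The Chl1 and Itga4 windows held none of the 4 sets of letters, and the motifs were picked with the genes known, so a match is a description of the sequence only.

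After filters on genes, unique molecular identifiers (UMIs, which count RNA molecules) and mitochondrial UMIs, and after removal of likely doublets, 10108 cells remained at day 5, 6912 at day 0 and 5574 in the day 9 library, with median depths of 8893.5, 9592.5 and 6317 UMIs per cell. The stromal libraries shared 22 barcodes among the cells kept, and the day 9 library shared 23 with day 5 and 11 with day 0. Cells were clustered without the members, and classes were named from marker genes by a rule set after the clusters had been seen. Levels are UMIs per 1000000 UMIs of the class (CPM). With a 3' assay, levels were compared between cells and not between genes. Day 5 over day 0 ratios of 1.5-fold or more in either direction are counted below as a size and not as a call, over genes with at least 50 UMIs in the class over both libraries.

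The fibroblast-like cells (7010 at day 5 and 4176 at day 0) were divided as the markers allowed. The lining class, led by Prg4 (lubricin), held 249 cells at day 5 and 212 at day 0, with 45988 CPM of Prg4 at day 5 and 49548 CPM at day 0. The Saa3-led class, named for the acute-phase gene Saa3, held 1288 cells at day 5 and 15 at day 0. This class also had the lining marker Prg4, at 6883 CPM at day 5, with UMIs in 1170 of the 1288 cells. The other Pdgfra-expressing fibroblasts had 488 CPM of Prg4 at day 5 and tenocyte-like cells had 2890 CPM. The Saa3-led level thus lay well below the 45988 CPM of the lining, but Prg4 RNA was not confined to the lining. At day 5 the Saa3 level of the Saa3-led class was 2527 CPM, although 401 of the 1288 cells had a Saa3 UMI, whereas the 15 day 0 cells had no Saa3 UMI. Those 15 cells therefore go against the name of the class, and the days are not compared within it. Other Pdgfra-expressing fibroblasts numbered 5473 at day 5 and 3949 at day 0, and endothelial-like cells, all with Pecam1 UMIs, numbered 54 at day 5 and 84 at day 0. Tenocyte-like and osteoblast-like cells and 3 Pdgfra clusters led by genes of other classes (1065 cells at day 5 and 689 at day 0) were kept apart.

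**Figure D1:**
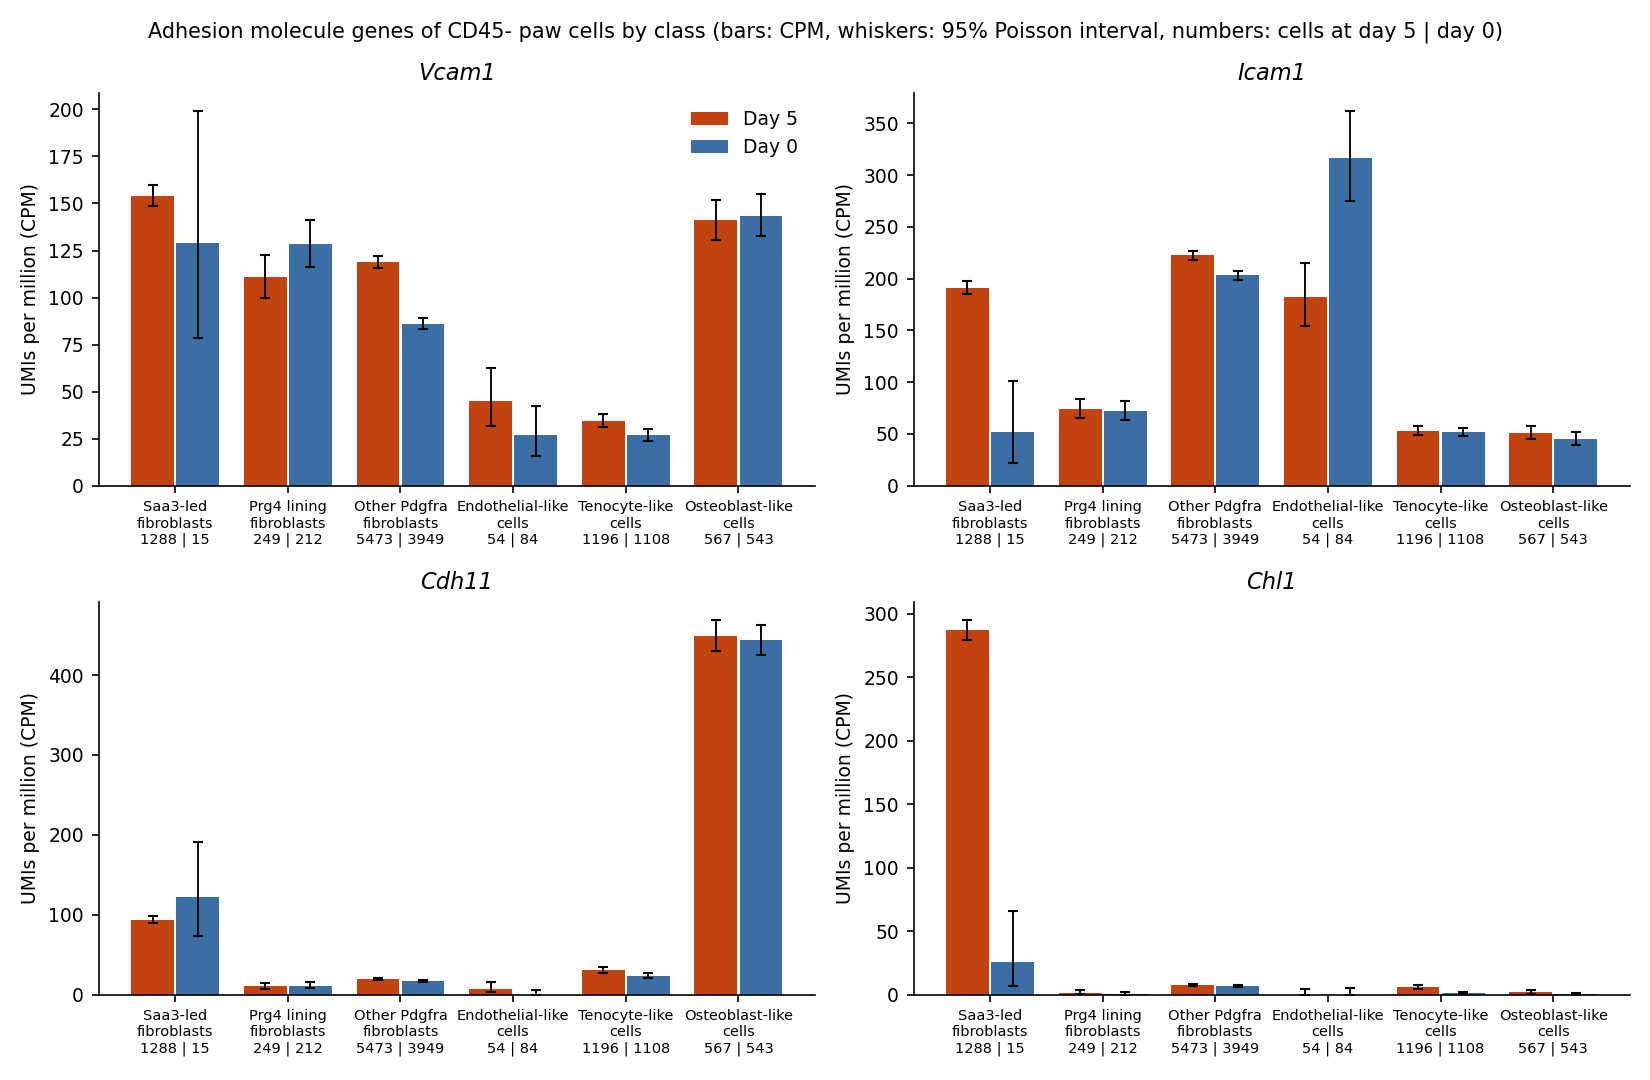
Bars give the level of Vcam1, Icam1, Cdh11 and Chl1 (CPM, linear axes starting at 0) in each stromal class at day 5 and day 0, whiskers the 95% counting intervals and the numbers under the classes the cells at each day. Chl1 reached 287 CPM in the Saa3-led class at day 5 and 7.68 CPM in the other Pdgfra fibroblasts, while Cdh11 was highest in osteoblast-like cells at both days.

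Over all fibroblasts, Chl1 showed the widest gap between days of the members, Cdh11 a smaller one, and Vcam1 and Icam1 smaller ones still. Of the 6 members with 50 UMIs, Chl1 and Cdh11 were at least 1.5-fold higher at day 5, against 8.01% of all 13694 genes counted, and Itga4 was at least 1.5-fold lower, against 6.26%. Together these 3 compare with 14.3% of genes in either direction. Because the members were chosen with earlier results of these data known, such counts are descriptions only. In the fibroblasts outside the Saa3-led class none of the members reached 1.5-fold, against 13.1% of genes in either direction. The same was true of the other Pdgfra fibroblasts, against 13.3% of genes.

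Vcam1, the ligand of the alpha 4 integrins, had 127.6 CPM in day 5 fibroblasts (9148 UMIs) and 89.6 CPM in day 0 fibroblasts (3837 UMIs), a ratio of 1.42 (1.37 to 1.48). The gap was also present outside the Saa3-led class, where the ratio was 1.32, and in the other Pdgfra fibroblasts, with 118.8 CPM at day 5 and 86.1 CPM at day 0. The lining went the other way. Lining cells had 110.9 CPM of Vcam1 at day 5 (369 UMIs) and 128.3 CPM at day 0 (428 UMIs), a ratio of 0.864 (0.750 to 0.996). The lining ratio was below 1 under all 12 alternative settings, between 0.543 and 0.876, so its size is uncertain. No member of the 3 with enough UMIs in the lining reached 1.5-fold, where 10.6% of 8682 genes did.

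The place of the lining among the fibroblasts accordingly differed between libraries. Within the day 5 library the lining had 0.934 times the Vcam1 level of the other Pdgfra fibroblasts, whereas within the day 0 library it had 1.49 times their level. The Saa3-led cells of day 5 had the highest Vcam1 level of the fibroblast classes, 154 CPM, 1.30 times that of the other Pdgfra cells. Tenocyte-like cells had less, 34.6 CPM at day 5 and 26.9 CPM at day 0, and osteoblast-like cells had 141 CPM at day 5 and 143.5 CPM at day 0. The main osteoblast-like cluster had 174 CPM at day 5 and 163 CPM at day 0. The smaller one (88 day 5 and 70 day 0 cells) had 26.7 CPM (29 UMIs) and 54.2 CPM (46 UMIs), a ratio of 0.493 (0.299 to 0.802).

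Vcam1 also varied among the 11 fibroblast clusters that held 50 cells or more at both days. It was higher at day 5 in 8 of them, and at least 1.5-fold higher in 3. The cluster led by Ccl11, Fbln7 and Itih2 had 204 CPM at day 5 and 91.0 CPM at day 0, a ratio of 2.25, and the cluster led by Ccl11, Dpep1 and AW112010 had 225 CPM at day 5 and 115 CPM at day 0, a ratio of 1.96. The largest cluster, led by Ccl11, Dpep1 and Pou2f2, had a lower level with a similar ratio, 64.6 CPM at day 5 and 31.4 CPM at day 0. The lowest ratio among the 11 was 0.788. None of these 11 clusters is Saa3-led, so the Vcam1 difference was spread over several clusters of different levels outside that class.

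Icam1, the ligand of the beta 2 integrins, was nearly level in fibroblasts as a whole, with 207.5 CPM at day 5 and 192.7 CPM at day 0, a ratio of 1.08 (1.05 to 1.11). The lining was low in Icam1 in both libraries. Its level was 73.9 CPM at day 5 and 72.3 CPM at day 0, which was 0.332 times that of the other Pdgfra fibroblasts at day 5 and 0.355 times at day 0. The lining ratio of 1.02 was 0.502 at a clustering resolution of 2.0, which cut the class differently. The Saa3-led cells of day 5 had 191 CPM, 0.859 times the other Pdgfra cells, but the direction depended on the cluster. In the larger Saa3-led cluster (977 cells) Icam1 was at 236 CPM, above the 222.6 CPM of the other Pdgfra cells, and in the smaller one (311 cells) it was at 51.7 CPM. The same held for Vcam1, with 178 CPM in the larger cluster and 79.2 CPM in the smaller one, on either side of the 118.8 CPM of the other Pdgfra cells.

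Among the 11 fibroblast clusters Icam1 was higher at day 5 in 10, but it reached 1.5-fold in only 1, led by Ccl11, Hmcn2 and Smoc2, with 152 CPM at day 5 and 70.9 CPM at day 0. The exception was the cluster led by Pi16, Engase and Pou2f2, where Icam1 was 38.6 CPM at day 5 and 58.4 CPM at day 0, a ratio of 0.661 (0.523 to 0.829). Differences between clusters were wider than those between days. The highest Icam1 level, 687 CPM at day 5 and 612 CPM at day 0, was in the cluster led by Ccl11, Ccl7 and Tnfaip6, and was high in both libraries. Outside the fibroblasts, an unnamed cluster led by Cytl1, Chad and Spp1 had 162 CPM of Icam1 at day 5 and 42.5 CPM at day 0, a ratio of 3.81 (3.00 to 4.85).

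**Figure D2:**
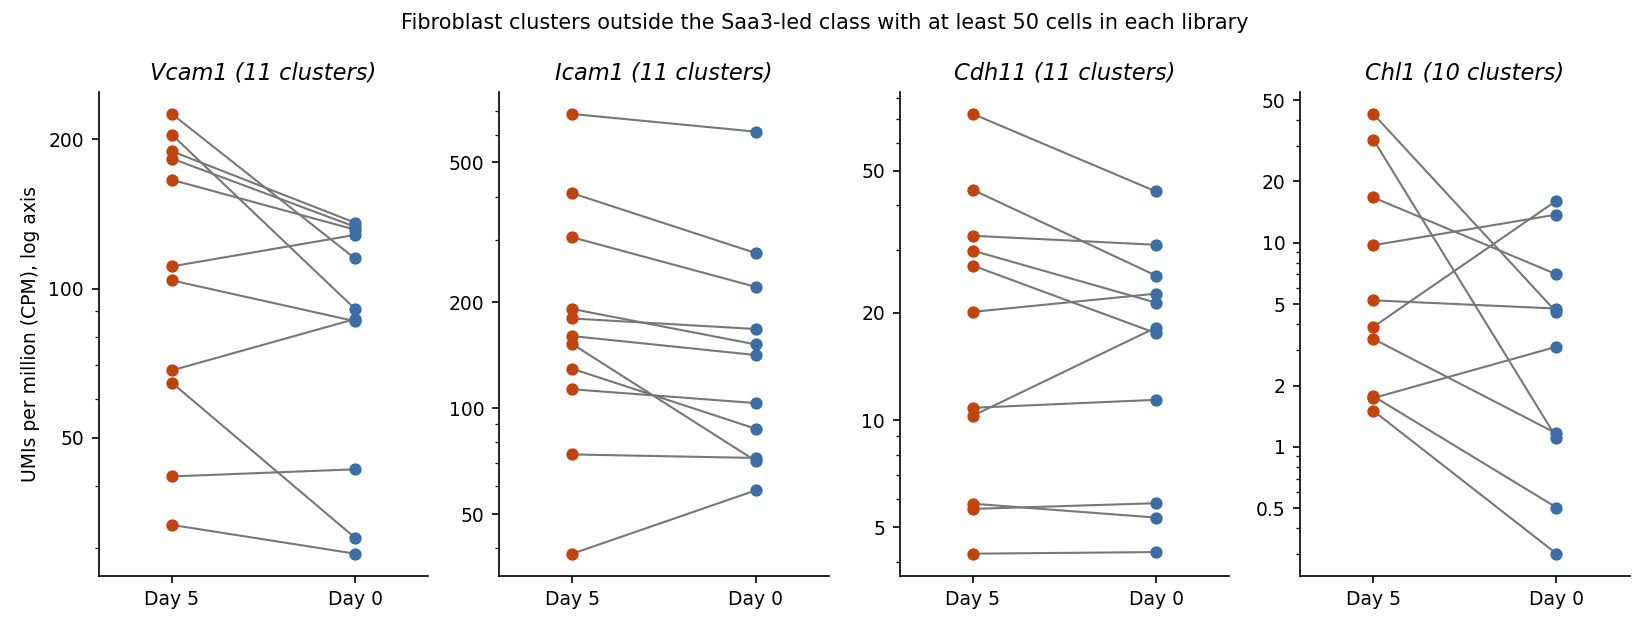
Points give the level of each ligand (CPM, log axes) at day 5 and day 0 in the fibroblast clusters outside the Saa3-led class that held 50 cells or more at both days, with a line joining the days of a cluster. Of 11 clusters, 8 were higher at day 5 for Vcam1 and 10 for Icam1, while the Chl1 lines cross in both directions (10 clusters are drawn, since 1 had no Chl1 UMI at day 0).

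Chl1, the L1-type adhesion molecule, had 80.0 CPM in day 5 fibroblasts (5735 UMIs) and 6.07 CPM in day 0 fibroblasts (260 UMIs), a ratio of 13.2 (11.6 to 15.0). Most of it came from 1 class. The Saa3-led clusters made up 12.7% of the day 5 cells and held 85.7% of the library's Chl1 UMIs, against 24.8% of the Vcam1, 20.4% of the Icam1 and 24.4% of the Cdh11 UMIs. Their cells were deeper, with cluster medians of 13338 and 12441.5 UMIs against 8893.5 for the day 5 library. The shares of UMIs are therefore not to be read against the share of cells. Icam1 in CPM was 0.859 times that of the other Pdgfra cells. At day 0, 80.7% of the 316 Chl1 UMIs lay in the other Pdgfra fibroblasts.

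Outside the Saa3-led class the fibroblast ratio of Chl1 was 1.22, and in the other Pdgfra fibroblasts it was 1.19, with 7.68 CPM at day 5 and 6.48 CPM at day 0. Within the day 5 library the Saa3-led cells had 287 CPM of Chl1, which was 37.4 times (33.7 to 41.6) the level of the other Pdgfra cells. Saa3 itself differed 55.4-fold and the neutrophil chemokine gene Cxcl5 18.7-fold between the same cells, and both took part in the clustering. Chl1 was not used in the clustering but was among the 10 leading genes of the larger Saa3-led cluster, so its level there is a description. When classes were instead defined by UMI gates on single marker genes, 263 cells passed as Saa3-led at day 5. The gated other Pdgfra class held 7611 day 5 cells, against 5473 by clusters. It took in every cell with a Pdgfra UMI below the Saa3 and Prg4 limits, cells of the Saa3-led clusters among them, and its Chl1 ratio was 8.19. In the clustered other Pdgfra class the ratio was 2.27 with equal weight for each cluster and 0.948 after thinning, so no direction is read from it. Over the fibroblast clusters of at least 50 cells at both days, none of them Saa3-led, the Chl1 ratio was 2.28 with equal weight. With the Saa3-led cells kept, the ratio over all fibroblasts was lowest after thinning, at 7.70, and was 8.20 with the mean of each cell's CPM.

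Detection in single cells gave the same order. After every cell was thinned to 2000 UMIs, 28.0% of the day 5 Saa3-led cells had a Chl1 UMI (54.7%, or 704 of 1288, before thinning), against 0.921% of the other Pdgfra fibroblasts at day 5 and 1.10% at day 0. Endothelial-like cells had no Chl1 UMI in either library, which allows up to 3.75 CPM at day 5 and 4.45 CPM at day 0. In the thinned Saa3-led cells Chl1 was found in 41.2% of cells with a Vcam1 UMI and in 24.6% of the rest, while cells with and without an Icam1 UMI had it in 26.8% and 28.5%. Chl1 was thus found more often beside Vcam1 in these cells, and about equally often with and without Icam1.

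The 2 Saa3-led clusters of day 5 differed in the same direction for all the ligands. The larger one (977 cells, led by Saa3, Ptx3 and Lcn2) exceeded the smaller one (311 cells, led by Spp1, Mmp13 and Saa3) 2.25-fold in Vcam1, 4.57-fold in Icam1, 1.5-fold in Cdh11 and 1.60-fold in Chl1. Chl1 stood at 316 CPM in the larger and 197 CPM in the smaller. Chl1 was also high in the day 5 cycling cluster, with 264.5 CPM from 328 UMIs in 38 cells, whose day 0 counterpart held 4 cells.

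Low levels of Chl1 in the other fibroblast clusters differed in both directions, but more often upward. Of the 11 clusters with 50 cells or more at both days, 6 had at least 50 Chl1 UMIs. Chl1 was at least 1.5-fold higher at day 5 in 4 of these 6 and at least 1.5-fold lower in 1. The cluster led by Ccl11, Inmt and C2 had 42.8 CPM of Chl1 at day 5 (99 UMIs) and 4.57 CPM at day 0 (7 UMIs), and the cluster led by Ccl11, Hmcn2 and Smoc2 had 79 UMIs at day 5 and 1 at day 0. In both, Saa3 was present at day 5 (134 and 135 CPM) and had no UMI at day 0. The cluster led by Lcn2, Ptn and Penk went the opposite way, with 3.88 CPM of Chl1 at day 5 and 16.1 CPM at day 0, a ratio of 0.241 (0.156 to 0.362), although its Saa3 was 94.7 CPM at day 5 and 7.32 CPM at day 0. Saa3 and Chl1 were likewise apart in the main osteoblast-like cluster, which had 131 CPM of Saa3 and 2.40 CPM of Chl1 at day 5. The unnamed cluster led by Cytl1, Chad and Spp1 (134 day 5 cells) had 776 CPM of Saa3 at day 5 and no Chl1 UMI. A higher Saa3 level therefore did not always go with a higher Chl1 level.

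**Figure D3:**
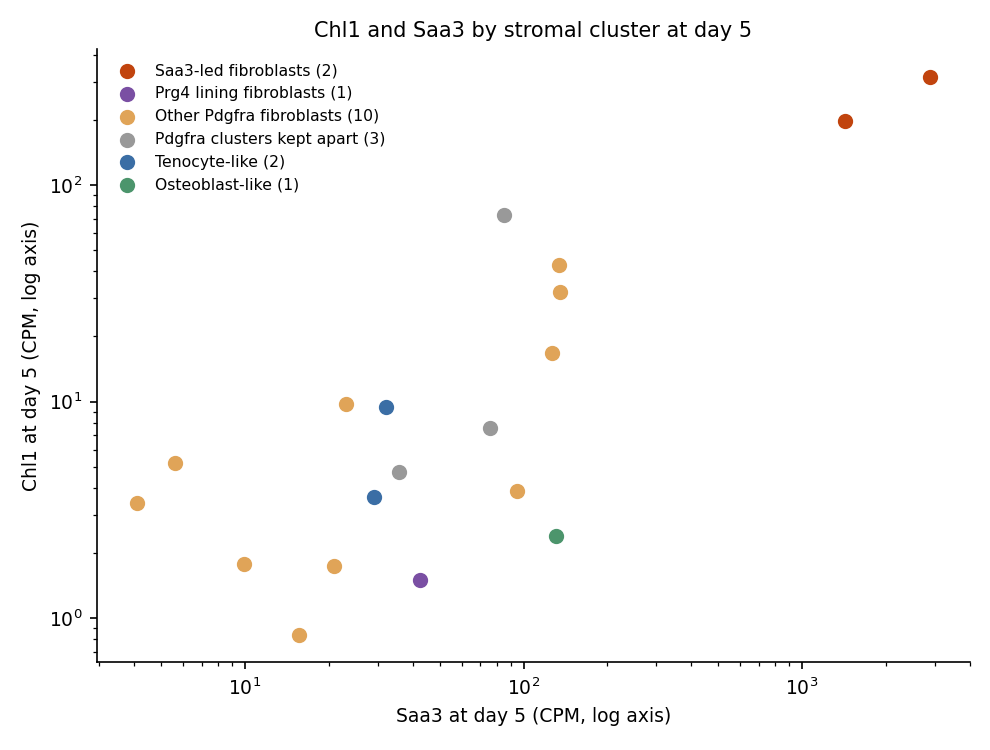
Points give the Chl1 level against the Saa3 level (CPM, log axes) of the stromal clusters at day 5, coloured by class, and clusters with under 50 day 5 cells or no Chl1 UMI are not drawn. Among those not drawn is the unnamed cluster led by Cytl1, Chad and Spp1, with 776 CPM of Saa3 and no Chl1 UMI. The Saa3-led clusters stand at the upper right (Chl1 at 316 and 197 CPM), and the osteoblast-like cluster with 131 CPM of Saa3 lies low at 2.40 CPM of Chl1.

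Cdh11, the fibroblast and osteoblast cadherin, had 38.6 CPM in day 5 fibroblasts (2770 UMIs) and 16.6 CPM in day 0 fibroblasts (709 UMIs), a ratio of 2.33 (2.15 to 2.54). As with Chl1, this gap lay largely in the Saa3-led cells. Outside them the Cdh11 ratio was 1.20. With equal weight for each cluster of at least 50 cells at both days, which also leaves out the Saa3-led clusters, it was 1.27. With UMI gates, which also take in osteoblast-like cells that have a Pdgfra UMI, it was 1.28. In the clustered fibroblasts with the Saa3-led cells kept, it was 1.66 after thinning and 1.70 with the mean of each cell's CPM. Within the day 5 library the Saa3-led cells had 93.4 CPM of Cdh11, 4.68 times (4.33 to 5.06) the 20.0 CPM of the other Pdgfra cells. Thinned shares of cells with a Cdh11 UMI were 13.6% in the Saa3-led cells and 5.44% over all day 5 fibroblasts, against 3.55% of day 0 fibroblasts.

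The Prg4-led lining, for which cadherin-11 is best known, had little Cdh11 RNA, with 10.8 CPM at day 5 (36 UMIs) and 11.4 CPM at day 0 (38 UMIs). Their ratio of 0.950 was 2.04 with UMI gates, where the lining was a different set of cells. It held 577 cells at day 5 and 232 at day 0, against 249 and 212 by clusters. Most of the Cdh11 was elsewhere. Osteoblast-like cells had 449 CPM at day 5 and 444 CPM at day 0, a ratio of 1.01 (0.953 to 1.08), and were 11.6 times above the fibroblasts at day 5 and 26.8 times at day 0. They held 30.5% of all Cdh11 UMIs at day 5 and 49.0% at day 0, and the Pdgfra clusters kept apart, led by genes such as Mmp13, Chad and Ibsp, held 24.2% at day 5 and 26.4% at day 0. A Cdh11 UMI was found in 48.9% of thinned osteoblast-like cells at day 5 and 49.7% at day 0, so neither level nor detection differed much between libraries there. In osteoblast-like cells as a whole none of the members reached 1.5-fold, against 8.91% of genes.

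In tenocyte-like cells Chl1 alone reached 1.5-fold, where 7.75% of genes did in that direction. It had 5.79 CPM at day 5 (61 UMIs) and 1.47 CPM at day 0 (17 UMIs), a ratio of 3.93 (2.27 to 7.18) that ranged between 1.69 and 12.9 over the 12 alternative settings. Vcam1 and Cdh11 both had a pooled ratio of 1.29 in tenocyte-like cells, which lay below the ratio in each of the class's 2 clusters, whose sizes differed between days. In the cluster that held 393 day 5 cells and 857 day 0 cells, Vcam1 had 45.4 CPM at day 5 and 30.2 CPM at day 0, and Cdh11 37.0 CPM at day 5 and 25.9 CPM at day 0. In the other, of 803 day 5 cells and 251 day 0 cells, Vcam1 had 28.2 CPM at day 5 and 13.5 CPM at day 0, a ratio of 2.08, and Cdh11 had a ratio of 1.81. With equal weight for the clusters the ratios were 1.68 for Vcam1 and 1.57 for Cdh11, whereas after thinning that of Cdh11 was 0.878. Icam1 had a ratio of 1.03 that ranged between 0.692 and 1.16 over the alternatives. In the Pdgfra clusters kept apart, Vcam1 had a ratio of 1.51 and Chl1 one of 2.33, where 6.08% of genes were at least 1.5-fold higher. The Chl1 value rested on the cluster led by Ibsp, Cxcl13 and Bglap2, made up of 231 day 5 cells and 7 day 0 cells, which held 65 of the 108 Chl1 UMIs of day 5. Its cells were shallow, with a median of 2301 UMIs, and Ptx3, Lcn2 and Ccl7 were also among its leading genes. The best marker score of that cluster was for the Saa3-led list, at 0.304, below the limit of 1 for a name. Without that cluster the Chl1 ratio was 1.03 (0.646 to 1.65) and the Vcam1 ratio 1.47, a split chosen after the values were seen. Among the Saa3-led clusters, Icam1 (8 day 0 UMIs) and Chl1 (4 day 0 UMIs) were above 1.5-fold, but 54.7% of genes were past that size in either direction against the 15 day 0 cells, so nothing is read from it.

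The endothelial-like cells, in which VCAM1 and ICAM1 are textbook arrest molecules, rested on few cells. Vcam1 had 45.0 CPM at day 5 (36 UMIs) and 26.7 CPM at day 0 (18 UMIs), a ratio of 1.69 (0.932 to 3.15). A single day 5 cell gave 19 of the 36 UMIs, and this cell also held 35 UMIs of S100a8 and S100a9, genes of neutrophils and monocytes, with no Ptprc UMI in the class. Without the 2 day 5 cells that held such UMIs, Vcam1 had a day 5 level of 21.3 CPM and a day 0 level of 26.7 CPM, and the direction turned round (ratio 0.797). Without the highest cell of each library the Vcam1 ratio was 1.12.

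Icam1 was lower in day 5 endothelial-like cells, with 182.6 CPM (146 UMIs) against 316.2 CPM at day 0 (213 UMIs), a ratio of 0.578 (0.465 to 0.716). Here the direction held without the highest cells (0.488) and without the cells with leukocyte UMIs (0.408). After thinning, however, an Icam1 UMI was found in 20.4% of day 5 and 20.5% of day 0 endothelial-like cells, and 41 and 40 of the 213 day 0 UMIs came from 2 cells. The day 5 endothelial-like cells also carried more fibroblast RNA, with 46 Pdgfra and 88 Prg4 UMIs at day 5, against 1 and 16 at day 0, and its part in the result was not tested. Vcam1 higher and Icam1 lower are to be read against 18.1% of 4583 genes that were at least 1.5-fold higher and 20.2% that were lower in this class.

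The selectins, which slow leukocytes on endothelium, were also measured in these cells. Sele (E-selectin) had 220 CPM at day 5 and 83 CPM at day 0, a ratio of 2.65 (1.95 to 3.64), and Selp (P-selectin) had 434 CPM at day 5 and 232 CPM at day 0, a ratio of 1.87. The selectin ratios were not computed without the highest cells or the cells with leukocyte UMIs, as those of Vcam1 and Icam1 were. Of 10 measured endothelial adhesion genes, 3 were at least 1.5-fold higher and 1 was lower at day 5, against 18.1% and 20.2% of genes in this class. Mcam, an adhesion molecule of endothelial and mural cells, had a ratio of 3.28, Icam2 one of 1.49 and Pecam1 one of 0.788, while Jam2, a junction protein, had one of 0.462.

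The leukocyte integrin genes were close to absent from the CD45- fibroblasts. Itgam had no UMI at either day, which allows up to 0.0418 CPM at day 5 and 0.0700 CPM at day 0, and Itgb2 had 6 UMIs at day 5 and 5 at day 0. Itga4 had 50 UMIs at day 5 (0.697 CPM) and 51 at day 0 (1.19 CPM), a ratio of 0.586, and Itgal had 80 UMIs at day 5 and 51 at day 0. The ratio of Itga4 thus rests on very low levels.

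The wider adhesion families were examined through 8 lists. In fibroblasts the median log2 ratio over all 13694 genes counted was 0.0043, and 8.01% of them were at least 1.5-fold higher and 6.26% lower. The counts below are to be read against these shares. The immunoglobulin-type adhesion genes to which Vcam1, Icam1 and Chl1 are related had a median of 0.04, and of 13 measured none was at least 1.5-fold higher and 2 were lower. Cd200, an inhibitory surface protein, had a ratio of 0.515, Cadm3 one of 0.672 and Ncam1 one of 1.16. Of 10 cadherins and catenins, 1 was higher, the atypical cadherin gene Fat1 with a ratio of 1.52, while Ctnnb1, the gene of beta-catenin, which binds cadherin tails, had 1.08.

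Integrin subunits besides the members had a median log2 ratio of -0.18. Of 16 measured 1 was at least 1.5-fold higher and 5 were lower, against 8.01% and 6.26% of all genes. Itga6, a laminin receptor chain, had a ratio of 0.460, and Itga11, a collagen receptor chain, one of 0.570. The 1 higher subunit was Itga1, a collagen receptor chain, with 19.7 CPM at day 5 and 12.9 CPM at day 0, a ratio of 1.53, named after its value was seen. Of the subunits that reached 20 CPM, Itga5, the fibronectin receptor chain, had the highest ratio, 1.21. Of 10 matrix and soluble integrin ligands, 4 were higher and none lower, against the same 8.01% and 6.26%, with a median of 0.37. Tnc (tenascin C) had 23.7 CPM at day 5 and 5.11 CPM at day 0, a ratio of 4.63, and Spp1 (osteopontin) had 210 CPM at day 5 and 45.9 CPM at day 0, a ratio of 4.58. Fn1 (fibronectin) had 1588 CPM at day 5 and 2309 CPM at day 0, a ratio of 0.688. Outside the Saa3-led class none of the 10 reached 1.5-fold, against 13.1% of genes in either direction, and neither did Chl1 or Cdh11. The median of the 10 there was 0.06.

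Of the selectins and their ligands in fibroblasts, 1 of 4 measured was at least 1.5-fold higher, the hyaluronan receptor Cd44, with 95.5 CPM at day 5 and 62.1 CPM at day 0. None of 8 sheddases, which cut adhesion molecules from the surface, reached that size, and Adam17, which sheds VCAM1, had a ratio of 1.14. Of 13 integrin activation and adaptor genes 2 were higher and 1 lower, where 8.01% and 6.26% of all genes were. The higher ones, named after their values were seen, were of low level: Rasgrp2 had 123 UMIs at day 5 and 35 at day 0, a ratio of 2.10, and Fblim1 had 68 UMIs at day 5 and 15 at day 0, a ratio of 2.71. Fermt2 (kindlin-2) was the lower one, with a ratio of 0.647, and Vcl (vinculin) had a ratio of 1.01. Of 4 endothelial adhesion genes measured in fibroblasts, Cd34 alone was past 1.5-fold, with 404 CPM at day 5 and 788 CPM at day 0.

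In the day 9 library the cells were sorted on CD11b, the protein of Itgam, and against Ly6G, a neutrophil marker, so Itgam as such and the scarcity of neutrophils are products of the sort. Over the library the levels were 69.6 CPM for Itga4, 44.5 CPM for Itgal, 280 CPM for Itgam and 238 CPM for Itgb2. The members were compared over the 17 clusters with at least 50 cells. All 4 integrin genes spanned at least 5-fold between the highest and the lowest cluster, which 57% of 11711 genes did too. Among them Itgal had the widest span, 113-fold, against 13.5-fold for Itgam, 10.97-fold for Itga4 and 6.28-fold for Itgb2.

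**Figure D4:**
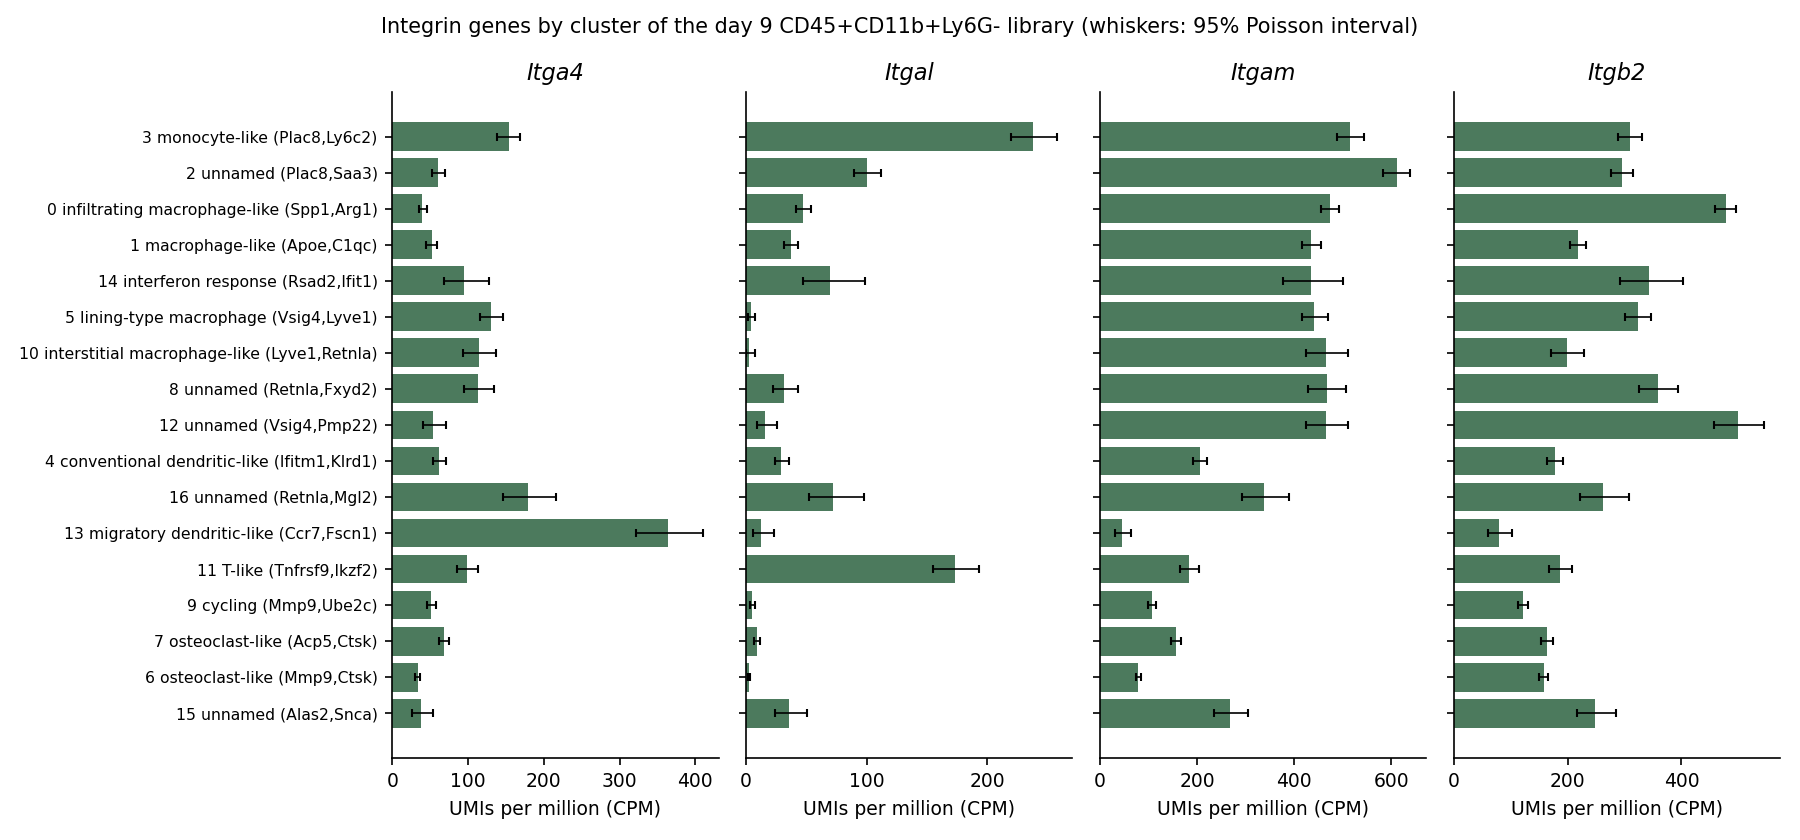
Bars give the levels of Itga4, Itgal, Itgam and Itgb2 (CPM, linear axes starting at 0) in the 17 day 9 clusters with at least 50 cells, named by class and leading genes, and whiskers the 95% counting intervals. Itgal was 3.82 CPM in the lining-type and 2.04 CPM in the interstitial macrophage-like cluster, where Itgam was 442 and 465 CPM.

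Itgal, the alpha chain of LFA-1, was highest in monocyte-like cells (448 cells), at 238 CPM (220 to 257), and next in T-like cells at 173 CPM (155 to 193). It was followed by an unnamed cluster led by Plac8, Saa3 and Ly6c2, at 100 CPM. The unnamed Retnla and Mgl2 cluster, at 72.1 CPM, and the interferon response cluster, at 69.6 CPM, had overlapping intervals. Infiltrating macrophage-like cells (864 cells, led by Spp1 and Arg1) had 47.3 CPM and macrophage-like cells led by Apoe and C1qc had 37.0 CPM. The lowest Itgal levels were those of osteoclast-like cells, at 8.98 and 2.11 CPM in 2 clusters, of a cycling cluster (4.84 CPM), and of lining-type macrophage-like (3.82 CPM) and interstitial macrophage-like cells (2.04 CPM, 0.247 to 7.35). The lining-type (1.75 to 7.25) and interstitial macrophage-like cells did not differ beyond counting error. The 2 osteoclast-like clusters did, with intervals of 6.64 to 11.9 CPM and 1.34 to 3.17 CPM, and the lower one also lay below the cycling cluster.

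Itgam, the alpha chain of Mac-1, did not follow that order. It was highest in the unnamed Plac8 and Saa3 cluster, at 611 CPM (584 to 639), and in monocyte-like cells, at 515 CPM. The infiltrating macrophage-like (473 CPM), interstitial (465 CPM), lining-type (442 CPM), interferon response (436 CPM) and Apoe-led macrophage-like cells (435 CPM) came next with neighbouring intervals that overlap. Conventional dendritic-like cells had 206 CPM and osteoclast-like cells 157 and 79.0 CPM of Itgam, and migratory dendritic-like cells had the lowest level, 45.3 CPM. T-like cells had 183 CPM of Itgam, but they also had 309 CPM of C1qa, a macrophage gene, and the part of free macrophage RNA in that level was not tested.

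Itgb2, the beta chain shared by LFA-1 and Mac-1, was highest in an unnamed cluster led by Vsig4, Pmp22 and Folr2 (499.5 CPM, 457 to 545) and in infiltrating macrophage-like cells (477 CPM, 459 to 496), whose intervals overlap. Lining-type macrophage-like cells had 323 CPM and monocyte-like cells 309 CPM. Interstitial macrophage-like cells, which were near the lining-type cells in Itgam, had 199 CPM of Itgb2. That level lay between 178 and 391 CPM over 7 alternative settings, so the gap depends on which cells are kept. Osteoclast-like cells had 163 and 158 CPM, and migratory dendritic-like cells again had the lowest level, 79.6 CPM.

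Itga4, the alpha chain of the VCAM1 receptor, was in contrast highest in migratory dendritic-like cells, at 364 CPM (321 to 410). The unnamed Retnla and Mgl2 cluster (179 CPM), monocyte-like cells (153 CPM) and lining-type macrophage-like cells (130 CPM) followed, with overlapping intervals between neighbours. Infiltrating macrophage-like cells were near the lower end with 39.7 CPM, and an osteoclast-like cluster of high depth (median 28117 UMIs) was lowest with 33.2 CPM. Lining-type macrophage-like cells therefore stood near the top for Itga4 and near the bottom for Itgal, while infiltrating macrophage-like cells were near the bottom for Itga4 and in the upper part for Itgal. NK-like cells, 47 in number and so outside the comparison, had 765 CPM of Itga4 (111 UMIs) and 655 CPM of Itgal (95 UMIs).

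The beta chains that pair with Itga4 also differed between the clusters. Itgb1 was highest in lining-type macrophage-like cells, at 520 CPM, and lowest in monocyte-like cells, at 140 CPM. Itgb7, the beta chain of the gut-homing alpha 4 integrin, was highest in T-like cells (292 CPM) and stood at 203 CPM in monocyte-like and 4.67 CPM in lining-type macrophage-like cells. Itgax, whose protein is CD11c, which also pairs with Itgb2, was highest in the unnamed Retnla and Mgl2 cluster (285 CPM) and in conventional dendritic-like cells (221 CPM). Cd44 spanned 1862 CPM in infiltrating and 235 CPM in lining-type macrophage-like cells, and Selplg, the gene of the P-selectin ligand PSGL-1, was highest in migratory dendritic-like cells with 699 CPM.

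The ligand genes were not confined to stroma. Icam1 had 65.7 CPM over the day 9 library, with 220 CPM in migratory dendritic-like cells (187 to 256) and 29.6 CPM in an osteoclast-like cluster. Vcam1 had 8.35 CPM over the library and was high in 1 cluster of at least 50 cells, the Apoe- and C1qc-led macrophage-like cells, at 58.5 CPM (51.3 to 66.4). In the other clusters of that size Vcam1 was at most 15.7 CPM. Cdh11 (1.61 CPM) and Chl1 (0.393 CPM) were nearly absent, and 83 of 86 Cdh11 UMIs and 12 of 21 Chl1 UMIs lay in a cluster of 24 fibroblast-like cells that had passed the sort.

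The genes whose log levels were most like each ligand were sought over 42 points (each stromal cluster in each library where it held at least 50 cells) among 5521 genes, and those most like each integrin over the 17 day 9 clusters among 5417 genes. These correlations share libraries and cells and are descriptions. Vcam1 was nearest to Mdk (r = 0.79), Lpp (0.78) and Ccl19 (0.76), and Icam1 to the MHC class I gene H2-Q4 (0.88), Irf1 (0.81) and Zfp36 (0.81). Chl1 was nearest to Sod2 (0.84), Cxcl5 (0.84) and Ptx3 (0.84), of which Cxcl5 and Ptx3 were among the leading genes of the larger Saa3-led cluster, and Cdh11 to Fat1 (0.87), Igsf3 (0.87) and the osteoblast transcription factor gene Runx2 (0.85). Itgal was nearest to the chemokine receptor gene Ccr2 (0.90) and Itgam to Zeb2 (0.96) and Fcgr3 (0.96). Itgb2 was nearest to Card19 (0.91) and Itga4 to Arhgap1 (0.88).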

How the data were processed

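The authors deposited raw UMI counts per gene and barcode, and the file headers name Cell Ranger 6.0.1 as their source. The submitters' processing notes name mm10 and Seurat 4.3.0. Only barcodes of at least 500 UMIs were in the matrices. Minimums of 500 genes and 1000 UMIs per cell and a maximum of 10% for mitochondrial UMIs were applied (leaving 11172 cells at day 5, 7368 at day 0 and 5945 at day 9), and 1064, 456 and 371 likely doublets were removed by comparison with simulated ones at 0.8% per 1000 cells. The members were left out of the 2000 variable genes, and cells were clustered by the Leiden method (leidenalg 0.10.2, resolution 1.0) on 30 principal components and 15 neighbours, with the stromal libraries together. A cluster took the name of a marker list with a mean log2 score of at least 1. At least 3 genes of the list had to be detected, with a gene of it among the cluster's 10 leading genes. Fibroblast clusters that fitted no list needed 150 CPM of Pdgfra, and this rule was set after the clusters had been seen. The alternative UMI gates used limits per cell, among them 500 CPM of Saa3 and 10000 CPM of Prg4. UMIs were summed per class and library. Levels have exact Poisson intervals, ratios exact conditional binomial ones and shares exact Clopper-Pearson ones, which cover counting error only. A count of 0 was given a limit of 3 counts. With 1 library per group no test and no p-value was computed. The ratio script was tested on simulated data. Likeness between genes is Pearson's r of log2(CPM + 10). The members and the 8 gene lists (110 genes) were chosen with earlier results of these data known, and named from each list were the 2 genes of highest and the 2 of lowest fibroblast ratio among those with 50 UMIs over both libraries and 20 CPM in the higher one, and, in myeloid cells, the 3 of highest level in the integrin, activation and selectin lists. For each member, the 3 most correlated genes with 50 CPM in a cluster were named. Other genes named were chosen after their values were seen. Python 3.11.15, scipy 1.17.1 and scikit-learn 1.9.0 were used, and for the scaling alternatives edgeR 4.0.16 and DESeq2 1.42.0.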

Additional observations from a re-analysis of the deposited data

How the results depend on the processing

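No paired analysis was possible because each group had 1 library. The limits are 1 library per day, few endothelial-like cells (54 at day 5 and 84 at day 0) and lining cells (249 at day 5 and 212 at day 0), and classes whose clusters differ in level. Of 24 ratios, 11 crossed 1 in at least 1 alternative. Among those at least 1.5-fold different to begin with, Vcam1 in endothelial-like cells did so, at 0.797 without cells holding leukocyte UMIs. The others lay nearer 1, and ranged most widely for Cdh11 in the lining (0.714 to 2.04) and Chl1 in other Pdgfra fibroblasts (0.948 to 8.19). Both upper values came from the UMI gates, whose classes hold other cells than the clustered classes. For members at least 1.5-fold different, the 3 in fibroblasts became 4 without doublet removal (Vcam1 joined, at 1.64), 2 at resolution 2.0 (Itga4 was 0.708) or after thinning, 1 (Chl1) with UMI gates or equal weight for clusters, and 0 without the Saa3-led clusters, a setting added after the data were seen. The 0 in the lining became 1 with the looser or stricter cell filter (Vcam1) or without the count minimum, and 2 at resolution 2.0 (Vcam1 and Icam1) or with UMI gates (Cdh11 and Chl1). The 0 in other Pdgfra fibroblasts became 1 with the stricter filter (Chl1), no doublet removal (Vcam1), equal weight (Chl1) or no count minimum (Itgb2), and 2 with UMI gates. The 2 in endothelial-like cells became 1 with the stricter filter, no doublet removal, the mean over cells or no leukocyte UMIs, and 0 with UMI gates or thinning. The 1 in tenocyte-like cells became 2 without doublet removal or at either other resolution, 3 with equal weight and 0 after thinning. The 0 in osteoblast-like cells became 1 without doublet removal and 4 without the count minimum. The 2 in Saa3-led cells became 1 at resolution 0.5, 4 with UMI gates and 5 without the count minimum. Of the listed genes in fibroblasts, the 9 higher became 15 with gates, 18 without the count minimum, 2 with equal weight, 4 after thinning and 3 without the Saa3-led clusters. The 9 lower became 14 with the looser filter, 16 with the stricter filter or no doublet removal, 15 at either other resolution or without the count minimum, and 4 with equal weight. Median-of-ratios scaling shifted all genes by 0.102 on the log2 scale in endothelial-like cells and by 0.27 in Saa3-led cells, and TMM scaling by 0.29 in the Saa3-led cells. Equal weight could not be computed for the lining, Saa3-led and endothelial classes. It used only clusters with at least 50 cells at both days, so over all fibroblasts it left out the Saa3-led clusters. The causes of these changes were not tested.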
